A study of Mus musculus with 45 samples.

Results

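Meningeal macrophages (mMΦ), which sit in the membranes that wrap the brain, were set against microglia, the macrophages of the brain tissue itself, in 3-week-old mice (postnatal day 21, P21). The comparison took every library labelled with these populations and this age, which made 3 mMΦ and 5 microglia libraries, or 8 of the 45 libraries of the study. All came from C57BL/6J mice kept in a specific-pathogen-free facility and untreated, with the genotype Cx3cr1GFP/wt: 1 allele of the fractalkine receptor gene Cx3cr1 carries GFP in mMΦ and in microglia alike, so no group has both alleles intact. The 3 mMΦ libraries and microglia libraries 1 to 3 belong to sequencing batch S232, and microglia libraries 4 and 5 to batch S276. Perivascular macrophages (pvMΦ) of the same age and genotype (4 libraries, the last in S276) and the mMΦ and microglia libraries of P10 (3 and 3) and P56 (3 and 5) were used only to place the P21 difference. Cells were sorted from brain tissue of individual mice. The labels name neither the sort gates nor how many cells went into a library.

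Both populations descend from early progenitors of the yolk sac and then live in different surroundings. Microglia depend on signals of the brain tissue, above all TGF-beta, for a programme led by the transcription factor SALL1, and they survey synapses and injury through purine receptors. Border macrophages of the meninges and the perivascular space carry scavenger and lectin receptors such as the mannose receptor and CD163, take up debris, lipoproteins and haemoglobin, and some present antigen on MHC class II in adult life. In a bulk library, fewer cells of a type and less RNA per cell cannot be told apart.

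Total counts of the 8 libraries ran from 15967501 to 26428491, and levels are given in CPM (counts scaled to a common library size) after TMM scaling. Counting error was a small part of the spread within a group: chi-square per degree of freedom was 171.7 to 217.2 between mMΦ libraries and 48.2 to 251.2 between microglia libraries. The closest pair was microglia 4 and 5 of batch S276, with a correlation of log2 CPM of 0.960, against 0.806 to 0.846 between S276 and S232 microglia. For several genes named below the batches stood apart within microglia. In the groups used beside these, microglia library 2 of P56 and pvMΦ library 1 of P21 stood apart from the rest of their group. Microglia library 1 held both Xist and Y-linked transcripts, although each library is labelled as a separate mouse, and their source was not tested. A difference is given as the log2 fold change of mMΦ over microglia ± SE, with the adjusted p of edgeR's quasi-likelihood test after Benjamini-Hochberg adjustment over all 17064 genes tested, and a gene is called at an adjusted p under 0.05.

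At P21, mMΦ differed from microglia at 1743 genes, or 10.2% of those tested. Of these, 1159 were higher in mMΦ (6.79% of genes tested) and 584 lower (3.42%). Counts of list members called, given below, are to be read beside these shares. The 3 mMΦ libraries and the 5 microglia libraries did not overlap at 2966 genes, or 17.4% of those tested, with mMΦ above at 1564 (9.17%) and below at 1402 (8.22%). Within batch S232 alone, 3 mMΦ against 3 microglia libraries gave 1228 calls, 1147 of them shared with the count above in the same direction. Batch S276 holds no mMΦ library at P21, so it gives no value of its own.

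All 28 genes of a border macrophage identity list were higher in mMΦ, with a median log2 fold change of 10.11, against 0.05 over all genes tested. This list, like the others, was chosen with earlier results of these data known, so its count is a description and no independent support. Among the receptors, Cd163, the scavenger receptor for haemoglobin bound to haptoglobin, was at 1036, 1224 and 1232 CPM in mMΦ, against 1.13, 0.109, 0.250, 0.496 and 0.326 CPM in microglia, a log2 fold change of 11.63 ± 0.53 (adjusted p = 4.22e-18). Mrc1, the mannose receptor gene, was at 3267, 4014 and 3623 CPM in mMΦ, against 25.9, 41.8, 26.4, 45.3 and 14.9 CPM in microglia (6.90 ± 0.37, adjusted p = 2.08e-16). It averaged 3635 ± 374 CPM in mMΦ (SD, n = 3) and 30.9 ± 12.5 CPM in microglia (SD, n = 5). The hyaluronan receptor gene Lyve1 was at 1631, 2082 and 2563 CPM in mMΦ, against 3.18, 0.219, 3.56, 0.0496 and 0.195 CPM in microglia (10.21 ± 0.81, adjusted p = 4.22e-12). In each of these genes the lowest mMΦ library stood far above the highest microglia library. The list did not split by library: its summed level was 35293, 36845 and 34551 CPM in mMΦ, against 951 to 1137 CPM in microglia.

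The remaining members differed in how much of the transcript microglia kept. In 12 of the 28 genes microglia averaged under 1 CPM. Timd4, which binds phosphatidylserine of dying cells, was at 170, 203 and 168 CPM in mMΦ and at 0.323, 0.0547, 0.0624, 0 and 0 CPM in microglia. Folr2, the folate receptor beta gene, was at 215, 206 and 258 CPM in mMΦ, against at most 1.17 CPM in any microglia library. At the other end stood genes that microglia also made in quantity. Stab1, a scavenger receptor gene, was at 565, 822 and 872 CPM in mMΦ and 161, 139, 135, 110 and 104 CPM in microglia (2.58 ± 0.18, adjusted p = 4.09e-13). Ms4a6b was at 986, 1300 and 777 CPM in mMΦ and 217, 228, 177, 257 and 279 CPM in microglia, with the smallest difference of the list at 2.18 ± 0.20 (adjusted p = 1.22e-10). Reads of the Cd209 genes (Cd209b, Cd209f, Cd209g) and of the Ms4a genes come from families of close copies, and their split between members is uncertain.

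**Figure D1:**
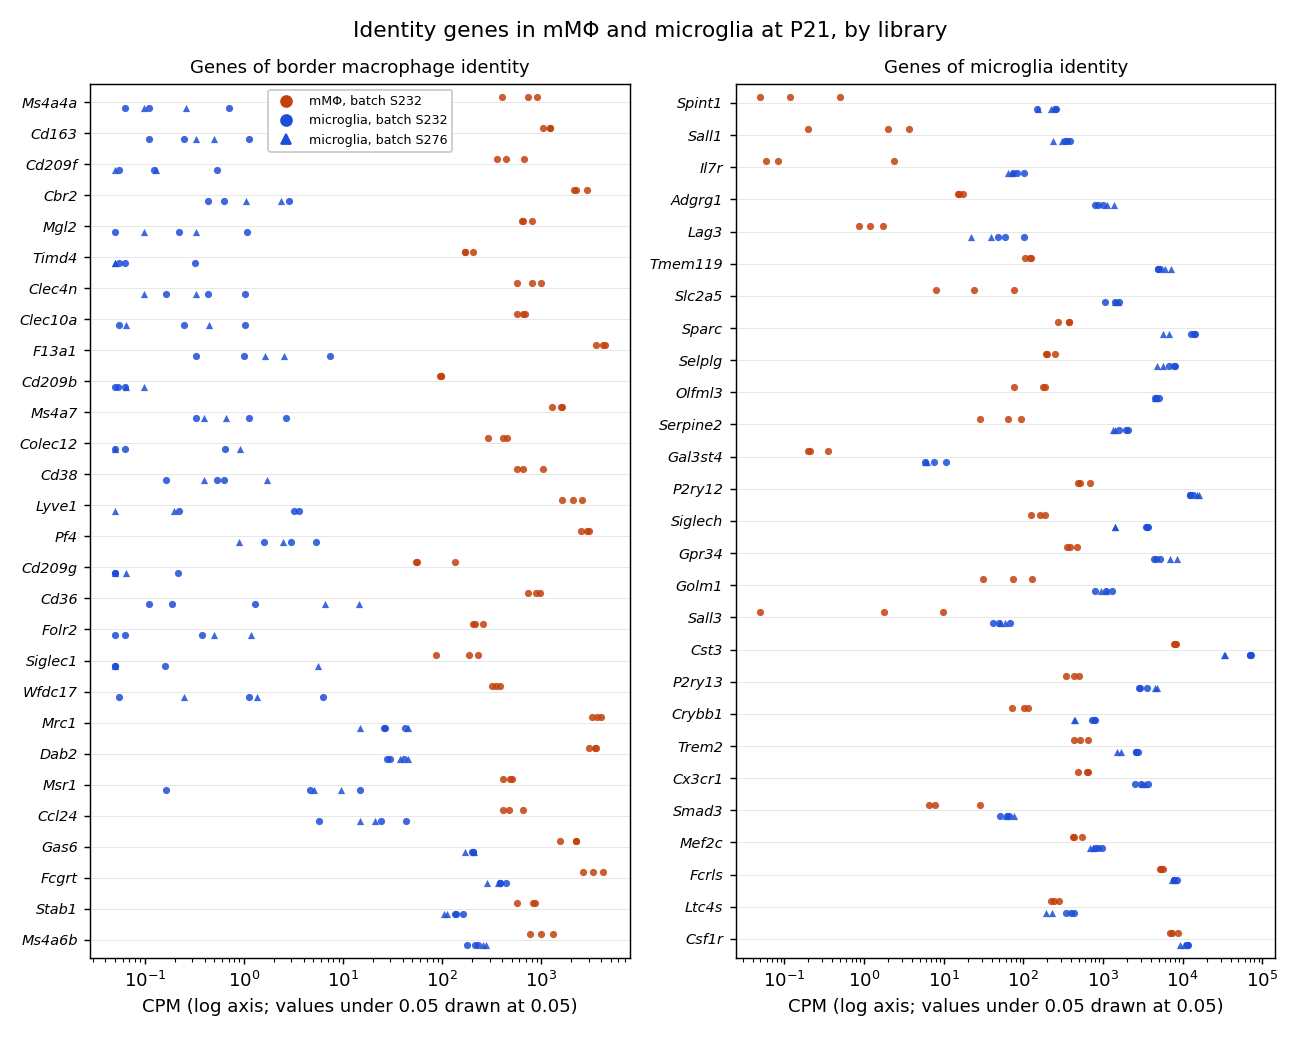
CPM in each P21 library on a log axis for the genes of the border macrophage list (left) and those of the microglia list reported by name (right), mMΦ in orange above microglia in blue, with circles for batch S232 and triangles for batch S276. All 28 border genes stand to the right in mMΦ, with Cd163 at 1036 to 1232 CPM in mMΦ against 0.109 to 1.13 CPM in microglia, and the plotted microglia genes stand to the left in mMΦ, without overlap in all but Ltc4s.

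Of 28 microglia identity genes, 25 were lower in mMΦ and none was higher, with a median log2 fold change of -4.21. P2ry12, the ADP receptor that steers microglial processes, was at 512, 697 and 481 CPM in mMΦ, against 13527, 12233, 12299, 15091 and 16271 CPM in microglia (-4.54 ± 0.31, adjusted p = 1.52e-13). It averaged 563 ± 117 CPM in mMΦ (SD, n = 3) and 13884 ± 1769 CPM in microglia (SD, n = 5). Tmem119, a membrane protein used as a microglia marker, was at 122, 104 and 124 CPM in mMΦ, against 4978, 4962, 5230, 7071 and 6028 CPM in microglia (-5.39 ± 0.37, adjusted p = 1.52e-13). Sall1, the transcription factor that keeps microglial identity, was at 0.199, 2.0 and 3.69 CPM in mMΦ, against 356, 337, 383, 307 and 237 CPM in microglia (-7.27 ± 1.11, adjusted p = 8.39e-06). The groups were separate in all of these, and the S276 microglia lay on the same side as those of S232.

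The mMΦ mean as a share of the microglia mean ran from 0.0993% for Spint1 to 78.4% for Ltc4s, with a median of 5.78% over the 28 genes, and it was under 10% in 18 of them. For Sall1 the share was 0.606%, for Tmem119 2.07% and for P2ry12 4.06%. Shared macrophage genes were at the top of that range. Csf1r, the receptor for CSF1 and IL-34 on which both populations depend, was at 7373, 7041 and 8696 CPM in mMΦ and 11752, 11408, 11351, 10528 and 9379 CPM in microglia, and it was not called (-0.37 ± 0.21, adjusted p = 0.296), although the libraries did not overlap. Of 18 alternatives, Csf1r was called lower in 3, and its sign turned under limma, where the log2 fold change was 0.17. Fcrls was called at a small difference (-0.59 ± 0.13, adjusted p = 0.00134), with 5254, 5667 and 5306 CPM in mMΦ and 8435, 7736, 7848, 8020 and 7281 CPM in microglia. Cx3cr1, with 1 allele replaced in every animal, was at 622, 654 and 483 CPM in mMΦ and 3650, 2542, 2997, 3360 and 3120 CPM in microglia (-2.28 ± 0.26, adjusted p = 2.81e-08). Sall3 and Smad3 were the other members not called.

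Among all genes with at least 100 CPM in the higher group and no overlap, the 15 with the largest excess in mMΦ included 9 of the border list, Ms4a4a first at 11.90 ± 0.998 (adjusted p = 2.05e-11). The others were Ifi207, Serpinb8, Ccn1, Fcna, Thbd and Pla2g2d. Because the list was chosen with earlier results of these data known, the 9 shared genes are no independent support for it. Fcna, a ficolin that starts the lectin pathway of complement, was at 658, 736 and 940 CPM in mMΦ, against 1.18, 0.164, 0.250, 0 and 0.130 CPM in microglia (11.07 ± 0.82, adjusted p = 1.06e-12). Thbd, thrombomodulin, was at 262, 163 and 222 CPM in mMΦ, against 0.162, 0, 0, 0 and 1.499 CPM in microglia (11.03 ± 1.03, adjusted p = 4.91e-10). Ccn1, a matrix-bound signalling protein, was at 1036, 1467 and 638 CPM in mMΦ, against 0.700, 0.219, 0.125, 0 and 1.82 CPM in microglia (11.35 ± 1.22, adjusted p = 7.50e-09). In each of them every microglia library was under 2 CPM.

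The 15 largest deficits in mMΦ were Npnt, Spint1, Tmem100, Sall1, Rtn4rl1, Lrrc3, Cd34, Spata13, Jam2, Klhdc8b, Spsb1, Plxdc1, Abcg1, Adgrg1 and Ets1. Npnt, the matrix protein nephronectin, was at 0.0397, 0.118 and 0.0419 CPM in mMΦ, against 131, 104, 113, 93.8 and 111 CPM in microglia (-10.32 ± 2.17, adjusted p = 0.000995). Cd34, a sialomucin, was at 1.51, 0.530 and 8.05 CPM in mMΦ, against 401, 390, 311, 410 and 402 CPM in microglia (-6.70 ± 1.59, adjusted p = 0.00369). Abcg1, which exports cholesterol to HDL, was at 2.98, 0.295 and 6.04 CPM in mMΦ, against 212, 150, 173, 170 and 163 CPM in microglia (-5.70 ± 0.78, adjusted p = 1.20e-06). All 15 were at 16.1 CPM or less on average in mMΦ, and mMΦ library 3 was the highest of the mMΦ libraries in all but Npnt and Tmem100. Ets1, Jam2, Spsb1, Spata13 and Plxdc1 lost their calls when mMΦ library 1 was left out, and all of these but Ets1 also without mMΦ library 2.

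Transcription factors of the macrophage lineage moved both ways, with 12 of 30 higher in mMΦ and 6 lower. Spi1, which encodes PU.1, was at 446, 403 and 491 CPM in mMΦ and 552, 526, 610, 358 and 326 CPM in microglia and was not called (adjusted p = 0.646). Cebpb was higher, at 897, 1259 and 1170 CPM in mMΦ, against 101, 126, 191, 104 and 78.3 CPM in microglia (3.13 ± 0.28, adjusted p = 9.08e-11). Irf8, Mef2a, Mef2c and Bhlhe41 were lower, and Irf8 was at 255, 298 and 382 CPM in mMΦ, against 720, 688, 607, 1179 and 986 CPM in microglia (-1.32 ± 0.19, adjusted p = 3.27e-06). Ahr, the aryl hydrocarbon receptor, was at 31.7, 19.6 and 23.7 CPM in mMΦ, against 0, 0.0547, 0, 4.16 and 0 CPM in microglia (7.47 ± 1.47, adjusted p = 0.000412). Spic, the factor of red pulp macrophages, was called higher at 13.3, 0 and 17.9 CPM in mMΦ, so 1 of the 3 libraries had no count, against at most 0.187 CPM in microglia (7.56 ± 1.46, adjusted p = 0.000392).

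In TGF-beta and BMP signalling, 4 of 29 genes tested were higher in mMΦ and 5 lower. The ligand Bmp2 was at 84.4, 139 and 251 CPM in mMΦ, against 0.485, 0, 0, 0 and 0.326 CPM in microglia (10.06 ± 0.85, adjusted p = 2.31e-11). Of the receptors, Tgfbr1 was at 145, 66.9 and 79.6 CPM in mMΦ, against 1355, 1370, 754, 3442 and 4242 CPM in microglia (-3.80 ± 0.50, adjusted p = 4.93e-07). The groups did not overlap, the S276 microglia were the highest for Tgfbr1, and within S232 the log2 fold change was -3.58 and still called. Its partner Tgfbr2 was not called (-0.08 ± 0.28, adjusted p = 0.937), with 263, 357 and 402 CPM in mMΦ overlapping the microglia range of 271 to 735 CPM. Itgav, the integrin chain that frees TGF-beta from its latent form, was at 4.49, 35.5 and 10.7 CPM in mMΦ, against 88.7, 136, 85.5, 166 and 196 CPM in microglia (-2.83 ± 0.52, adjusted p = 0.000156). Nrros, which holds latent TGF-beta on the macrophage surface, was higher at 722, 793 and 1125 CPM in mMΦ, against 359, 286, 324, 895 and 838 CPM in microglia (1.18 ± 0.23, adjusted p = 0.000359). There the groups overlapped through the S276 microglia, and the call was lost without the batch term. Of the transducers, Smad1 was lower (-1.36 ± 0.34, adjusted p = 0.00549) and Smad2, Smad3, Smad4 and Smad5 were not called. Without mMΦ library 2, 3 genes of the list were called lower.

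Interferon response genes were higher in mMΦ in 19 of 47 cases and lower in 3. The calls lay with the effectors, the genes that interferon induces to block viruses: 15 of 28 were higher and none lower, with a median log2 fold change of 3.08. Ifitm3, which blocks viral entry, was at 559, 633 and 826 CPM in mMΦ, against 33.0, 15.8, 19.6, 17.5 and 26.6 CPM in microglia (4.81 ± 0.51, adjusted p = 4.79e-09). Bst2, tetherin, was at 575, 606 and 498 CPM in mMΦ, against 117, 112, 143, 75.1 and 78.6 CPM in microglia (2.17 ± 0.17, adjusted p = 6.42e-12). Ifi207, of the DNA-binding p200 family, was at 532, 645 and 1033 CPM in mMΦ, against 0.646, 0.383, 0, 0.446 and 0.0652 CPM in microglia (11.69 ± 1.01, adjusted p = 4.36e-11). No microglia library reached the lowest mMΦ library in these 3 genes. Reads of Ifi203, Ifi204, Ifi207 and Ifi211 come from near-identical neighbours, so their split is uncertain.

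Other well-known effectors did not pass the test. Isg15, a ubiquitin-like modifier, was at 36.5, 68.4 and 34.7 CPM in mMΦ and 5.76, 14.1, 13.3, 4.41 and 12.3 CPM in microglia (2.21 ± 0.79, adjusted p = 0.0681), and Ifit2 had an adjusted p of 0.0614. Upstream, the master regulator Irf7 was higher, at 108, 118 and 159 CPM in mMΦ, against 4.58, 7.49, 0.125, 13.1 and 11.7 CPM in microglia (4.58 ± 1.01, adjusted p = 0.00162). The receptor chains Ifnar1 and Ifnar2 and the transducers Stat2 and Irf9 were not called. Sting1, the adaptor of cytosolic DNA sensing, was lower, at 151, 95.7 and 182 CPM in mMΦ, against 1256, 1059, 1320, 1204 and 1090 CPM in microglia (-3.11 ± 0.24, adjusted p = 2.82e-12). Ifngr1, the interferon gamma receptor chain, was lower too, at 739, 959 and 723 CPM in mMΦ, against 1849, 1882, 2152, 2086 and 1991 CPM in microglia (-1.28 ± 0.15, adjusted p = 5.68e-08). Usp18, which shuts off the receptor, was higher at 128, 84.2 and 77.8 CPM in mMΦ, against at most 28.7 CPM in microglia (3.43 ± 0.92, adjusted p = 0.0118).

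Interferon acts on these genes through the interferon-stimulated response element (ISRE), searched here as GAAANNGAAA on both strands in the 250 bases before the start of each gene, from RefSeq promoters of mouse build GRCm38.p6. Of the 19 members called higher, 13 had a promoter in that table and 6 of these (46.2%) held the motif. Among the 25 members not called the share was 9 of 19 with a promoter (47.4%), and of the 2 called lower that had a promoter neither held it. Over all 27025 gene symbols of the table the share was 3.46%. The motif thus did not set called members apart from those not called. The stretches around the match nearest the start are printed to show the motif in the 6 called members that hold it, in the direction of each gene with the match in capitals.
Bst2, chr8:71537567-71537616, minus strand: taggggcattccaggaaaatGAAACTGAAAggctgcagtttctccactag
Ifi203, chr1:173942498-173942547, minus strand: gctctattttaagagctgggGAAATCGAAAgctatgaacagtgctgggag
Ifi207, chr1:173741821-173741870, minus strand: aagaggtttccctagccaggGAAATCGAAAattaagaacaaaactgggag
Ifi211, chr1:173913054-173913103, minus strand: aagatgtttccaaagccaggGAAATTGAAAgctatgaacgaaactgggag
Ifit3, chr19:34583387-34583436, plus strand: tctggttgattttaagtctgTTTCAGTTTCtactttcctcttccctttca
Oas1a, chr5:120907526-120907559, minus strand: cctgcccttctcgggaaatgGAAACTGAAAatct
Ifit3 holds its match on the other strand, hence its letters. The labels name no genome build for the count table, so these positions are those of the promoter table and not of the counts. A match describes the letters and not a bound site.

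**Figure D2:**
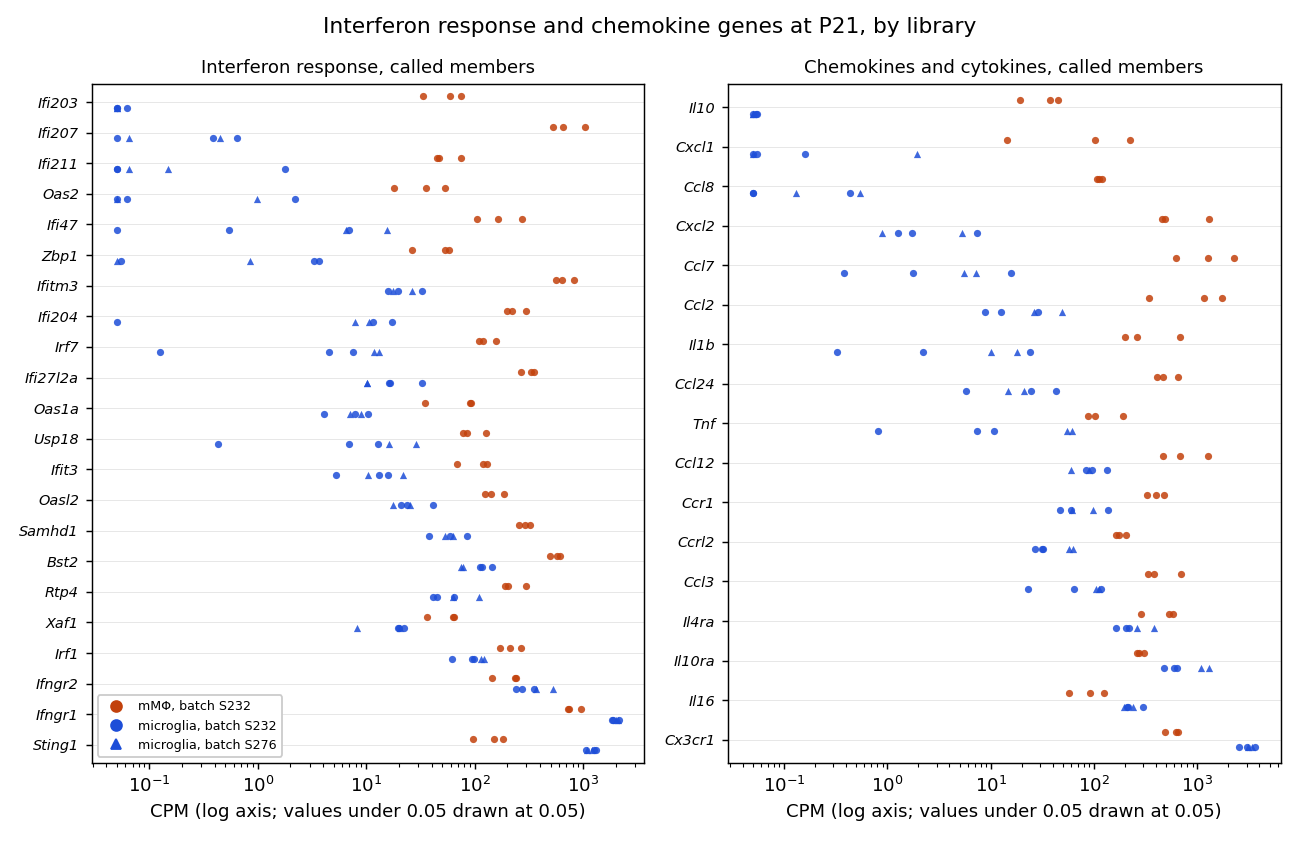
CPM in each P21 library on a log axis for the called members reported by name of the interferon list (left) and of the chemokine and cytokine list (right), mMΦ in orange above microglia in blue, with circles for batch S232 and triangles for batch S276. Ifitm3 is at 559 to 826 CPM in mMΦ against 15.8 to 33.0 CPM in microglia, while Sting1 and Cx3cr1 stand to the left in mMΦ.

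Chemokine ligands were higher in mMΦ in 8 of 13 cases and lower in none, and over all chemokines, cytokines and receptors 14 of 38 were higher and 4 lower. Ccl2, the main attractant of monocytes, was at 342, 1163 and 1737 CPM in mMΦ, against 12.6, 8.75, 28.5, 26.4 and 49.1 CPM in microglia (5.39 ± 0.55, adjusted p = 2.72e-09). Cxcl2, which draws neutrophils, was at 455, 487 and 1289 CPM in mMΦ, against 1.72, 1.26, 7.31, 0.892 and 5.34 CPM in microglia (7.77 ± 0.84, adjusted p = 8.77e-09). Ccl8 was at 107, 120 and 112 CPM in mMΦ, against at most 0.545 CPM in microglia (9.06 ± 0.87, adjusted p = 5.86e-10). Ccl8 was even across the 3 mMΦ libraries, whereas Ccl2 and Cxcl2 were highest in mMΦ library 3, as were Ccl7, Cxcl1 and Il1b.

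Of the cytokines, Il1b was at 199, 260 and 682 CPM in mMΦ, against 2.21, 0.328, 24, 18 and 10.03 CPM in microglia (5.22 ± 0.91, adjusted p = 7.18e-05). Il10, the anti-inflammatory cytokine, was at 19.2, 37.5 and 45.4 CPM in mMΦ, against at most 0.0547 CPM in microglia (9.95 ± 1.80, adjusted p = 0.00013). Il1a was not called (-0.81 ± 0.82, adjusted p = 0.638), and its 8.70, 54.5 and 200 CPM in mMΦ overlapped 97.1, 81.6, 164, 474 and 428 CPM in microglia. Immediate early genes, which cells also induce while they are being isolated, moved with these ligands: their summed level was 40491, 57735 and 53055 CPM in mMΦ, against 4495 to 22996 CPM in microglia, and its part in the chemokine result was not tested.

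Genes of MHC class II presentation went both ways. Over the list 5 of 15 genes were higher in mMΦ and 4 lower: 3 of 4 chains and the invariant chain were higher, and 4 of 7 loading genes, a group that includes the invariant chain, were lower. H2-Eb2, with no count in any mMΦ library, H2-DMb2 and H2-Ob were not called. H2-Aa was at 234, 56.5 and 118 CPM in mMΦ, against 8.78, 0.875, 0.687, 3.57 and 1.30 CPM in microglia (5.35 ± 0.95, adjusted p = 0.000109). Cd74, the invariant chain that guards the groove of new class II molecules, was at 876, 256 and 757 CPM in mMΦ, against 131, 131, 156, 56.6 and 49.8 CPM in microglia (2.53 ± 0.49, adjusted p = 0.000305). H2-DMa, which loads peptide onto class II, was lower, at 40.6, 80.9 and 77.0 CPM in mMΦ, against 418, 492, 511, 371 and 356 CPM in microglia (-2.83 ± 0.30, adjusted p = 6.69e-09). H2-DMb1, H2-Oa and the protease gene Ctss were lower as well, and Ctss was at 4449, 4627 and 4052 CPM in mMΦ, against 15531, 18069, 16288, 11400 and 11168 CPM in microglia (-1.85 ± 0.21, adjusted p = 3.61e-08). Library 2 was the lowest of the mMΦ libraries for all 4 genes of the chains and the invariant chain that were called. The transactivator Ciita had counts in 1 of 3 mMΦ and 1 of 5 microglia libraries and was not called. Cd40, a costimulatory receptor, was at 28.5, 54.3 and 43.0 CPM in mMΦ, against at most 0.108 CPM in microglia (10.06 ± 1.12, adjusted p = 4.08e-08), while Cd86 was not called (adjusted p = 0.45).

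In complement and the clearance of dying cells, 10 of 27 genes tested were higher in mMΦ and 9 lower, or 4 lower without mMΦ library 1. Properdin (Cfp), which stabilises the alternative pathway, was at 460, 506 and 577 CPM in mMΦ, against 1.13, 5.52, 0.375, 0.248 and 1.69 CPM in microglia (8.09 ± 0.87, adjusted p = 8.71e-09). C4b was at 268, 323 and 462 CPM in mMΦ, against 0.108, 0, 3.62, 2.08 and 0.130 CPM in microglia (8.37 ± 1.19, adjusted p = 2.58e-06). The receptor for C5a, C5ar1, was higher at 1160, 1237 and 2140 CPM in mMΦ, against 250, 233, 420, 335 and 306 CPM in microglia (2.40 ± 0.24, adjusted p = 1.47e-09). The C1q genes, made in quantity by both, were called slightly lower: C1qa was at 5811, 6497 and 5613 CPM in mMΦ and 8156, 8042, 8730, 5634 and 5439 CPM in microglia (-0.42 ± 0.11, adjusted p = 0.00746). The C1qa groups overlapped through the S276 microglia, and the call was lost without the batch term.

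The clearance receptors went both ways within a family. Axl was higher, at 100, 160 and 175 CPM in mMΦ, against 1.72, 3.88, 39.7, 56.6 and 43.5 CPM in microglia (3.51 ± 0.77, adjusted p = 0.00166), and its relative Mertk was lower, at 115, 109 and 186 CPM in mMΦ, against 352, 550, 408, 738 and 641 CPM in microglia (-1.72 ± 0.45, adjusted p = 0.00955). Their ligands followed the same split. Gas6 was at 2261, 1553 and 2219 CPM in mMΦ and 206, 207, 199, 207 and 169 CPM in microglia (3.33 ± 0.36, adjusted p = 9.81e-09), and Pros1, protein S, was at 333, 388 and 173 CPM in mMΦ and 940, 649, 805, 1104 and 1051 CPM in microglia (-1.55 ± 0.28, adjusted p = 0.000163). The integrin chain Itgb5, a partner in the uptake of dying cells, was lower, at 554, 527 and 498 CPM in mMΦ, against 2237, 2158, 2521, 2566 and 2276 CPM in microglia (-2.03 ± 0.25, adjusted p = 1.28e-07). Axl was not called without the batch term or in a fit of the compared groups alone.

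Of 35 genes for pattern recognition and Fc receptors, 11 were higher in mMΦ and 3 lower, or 1 lower without mMΦ library 1. Cd14, the co-receptor for lipopolysaccharide, was at 3745, 5265 and 6774 CPM in mMΦ, against 771, 822, 918, 933 and 799 CPM in microglia (2.61 ± 0.23, adjusted p = 8.60e-11). Tlr8 was at 56.1, 31.1 and 75.5 CPM in mMΦ, against at most 0.0547 CPM in microglia (11.12 ± 1.78, adjusted p = 1.89e-05), and Tlr12 was lower, at 0.119, 1.12 and 0.0419 CPM in mMΦ, against 16.6 to 75.9 CPM in microglia (-6.44 ± 2.04, adjusted p = 0.0372). Tlr2, Tlr4 and Tlr7 were not called. The formyl peptide receptors Fpr1 and Fpr2 were both higher, Fpr1 at 35.3, 94.8 and 61.3 CPM in mMΦ, against at most 2.61 CPM in microglia (8.70 ± 1.5, adjusted p = 9.27e-05). The inhibitory Fc receptor Fcgr2b was higher, at 1386, 1932 and 1535 CPM in mMΦ, against 591, 523, 539, 450 and 462 CPM in microglia (1.52 ± 0.18, adjusted p = 5.22e-08), while Fcgr3 and Fcgr1 were not called.

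Lipid genes were higher in mMΦ in 12 of 31 cases and lower in 5. Apoe, the apolipoprotein of brain lipoproteins, was at 65595, 76834 and 63885 CPM in mMΦ, against 1886, 1953, 2176, 208 and 170 CPM in microglia (5.67 ± 0.43, adjusted p = 1.29e-12). It averaged 68771 ± 7034 CPM in mMΦ (SD, n = 3) and 1279 ± 1001 CPM in microglia (SD, n = 5). Every mMΦ library stood far above every microglia library, and the S276 microglia were the lowest. Pltp, which moves phospholipid between lipoproteins, was even within mMΦ at 701, 700 and 704 CPM, against 1.51, 2.90, 0.812, 3.82 and 2.28 CPM in microglia (8.83 ± 0.73, adjusted p = 1.38e-11). Plin2, the coat of lipid droplets, was at 586, 686 and 918 CPM in mMΦ, against 77.6, 24.4, 49.95, 53.7 and 46.5 CPM in microglia (3.83 ± 0.50, adjusted p = 4.94e-07). Of 8 uptake receptors, 3 were higher and 2 lower. Lrp1, a large lipoprotein receptor, was lower, at 11.9, 26.9 and 50.9 CPM in mMΦ, against 286, 267, 381, 186 and 122 CPM in microglia (-3.08 ± 0.59, adjusted p = 0.000314). Trem2, a lipid receptor of microglia, was lower too (-2.32 ± 0.22, adjusted p = 6.18e-10). The exporter Abca1 was not called (adjusted p = 0.709), in contrast to Abcg1 above.

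In cholesterol synthesis 5 of 23 genes tested were higher in mMΦ and none lower, and 3 of the 5 were regulators. The count was 8 without the 3 libraries that stood apart and 3 in a fit of the P21 libraries alone. Srebf2, the master regulator of the pathway, was at 103, 109 and 157 CPM in mMΦ, against 27.5, 7.33, 16, 18.3 and 15.8 CPM in microglia (2.96 ± 0.56, adjusted p = 0.000259). Of the enzymes, Pmvk and Idi1 were the only ones called, of 20. Genes that mark white-matter and lipid-associated microglia in disease and development were higher in mMΦ in 10 of 25 cases and lower in 1. The higher ones were Apoe, Igf1, Gpx3, Plin2, Aplp2, Axl, Ccl3, Cd63, Ch25h and Fabp5. Igf1 was at 301, 162 and 267 CPM in mMΦ, against 1.51, 5.41, 5.06, 2.18 and 15.5 CPM in microglia (5.66 ± 0.55, adjusted p = 8.01e-10). The members most tied to that microglial state did not follow: Spp1, Itgax, Cst7, Gpnmb, Lpl and Clec7a were not called, and Cd9 was lower, at 69.5, 99.8 and 72.1 CPM in mMΦ, against 1757, 1710, 1592, 1556 and 1595 CPM in microglia (-4.53 ± 0.39, adjusted p = 2.79e-11).

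Haem and iron genes were higher in mMΦ in 11 of 23 cases and lower in 1, Lrp1, which takes up haem bound to hemopexin. All 3 enzymes of haem breakdown were higher. Hmox1, haem oxygenase 1, was at 590, 219 and 1025 CPM in mMΦ, against 8.99, 56.9, 6.99, 34.5 and 18.7 CPM in microglia (4.72 ± 0.73, adjusted p = 1.04e-05). Blvrb, a biliverdin reductase, was even at 522, 514 and 514 CPM in mMΦ, against 47.5, 70.9, 58.1, 35.8 and 42.0 CPM in microglia (3.13 ± 0.24, adjusted p = 1.78e-12). The ferritin chains followed, with Ftl1 at 2545, 2119 and 1917 CPM in mMΦ and 479, 590, 664, 316 and 299 CPM in microglia (1.95 ± 0.21, adjusted p = 6.60e-09). Cp, the ferroxidase ceruloplasmin, was at 260, 316 and 310 CPM in mMΦ, against 3.18, 0.219, 4.0, 0.843 and 8.01 CPM in microglia (6.32 ± 0.85, adjusted p = 9.07e-07). Slc40a1, the iron exporter ferroportin, was not called (0.74 ± 0.30, adjusted p = 0.119), with 721, 830 and 428 CPM in mMΦ inside the microglia range of 291 to 855 CPM. Erythroid transcripts summed to 23.7, 178 and 7.12 CPM in mMΦ, against 0.656 to 15.8 CPM in microglia, with none of 8 markers called, and their part in the haem result was not tested.

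Lysosomal genes changed in part and in both directions, with 6 of 36 higher in mMΦ and 9 lower. The 6 became 3 without mMΦ library 1, microglia library 4 or microglia library 5. The proteases divided: Ctsb was at 14169, 14409 and 14386 CPM in mMΦ and 6456, 6696, 5763, 4950 and 4281 CPM in microglia (1.28 ± 0.14, adjusted p = 6.67e-09), Ctsc was higher by 2.44 ± 0.15 (adjusted p = 4.99e-15), and Ctsd was at 3594, 3591 and 3453 CPM in mMΦ and 15898, 15487, 14449, 14278 and 12743 CPM in microglia (-2.09 ± 0.16, adjusted p = 3.27e-12). The regulators Tfeb, Tfe3 and Mitf were not called. Genes of purine sensing and ion channels were lower in mMΦ in 10 of 29 cases. They were higher in 2 of 29, near the 6.79% of all genes tested. The exceptions were P2rx4, an ATP-gated channel, at 579, 582 and 444 CPM in mMΦ and 82.6, 88.9, 50.7, 108 and 105 CPM in microglia (2.72 ± 0.19, adjusted p = 4.02e-13), and the potassium channel Kcnk5. Kcnk5 was at 25.8, 10.5 and 17.5 CPM in mMΦ and had no count in any microglia library, so it was at least 528-fold higher against the level that 3 counts over the group would give. Adora3, an adenosine receptor, was lower, at 0, 0 and 1.47 CPM in mMΦ, against 86.7, 74.6, 98.8, 108 and 112 CPM in microglia (-7.46 ± 1.36, adjusted p = 0.000172).

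Among growth factors, matrix and proteases, 8 of 36 genes tested were higher in mMΦ and 7 lower. Mmp9, a gelatinase, was at 249, 361 and 519 CPM in mMΦ, against 1.24, 0, 0.250, 0.0496 and 0.130 CPM in microglia (9.93 ± 0.78, adjusted p = 3.94e-12). Tgfbi, a matrix protein induced by TGF-beta, was at 1182, 1178 and 1311 CPM in mMΦ, against 33.3, 13.3, 39.8, 46.8 and 18.6 CPM in microglia (5.45 ± 0.63, adjusted p = 4.15e-08). Sparc, a matrix glycoprotein, was lower, at 273, 372 and 372 CPM in mMΦ, against 13729, 14122, 12629, 6774 and 5738 CPM in microglia (-5.10 ± 0.49, adjusted p = 5.07e-10). Glycolysis was called in 6 of 23 genes, 2 higher and 4 lower, or 2 lower without mMΦ library 2 or microglia library 3. Over all genes tested 6.79% were higher and 3.42% lower, so the 2 higher glycolysis genes are near that share. The glycolysis genes Gapdh, Pkm and Ldha were not called, while Ldhb was lower, at 48.1, 54.4 and 41.4 CPM in mMΦ, against 1083, 1101, 1086, 544 and 564 CPM in microglia (-4.36 ± 0.49, adjusted p = 2.18e-08).

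**Figure D3:**
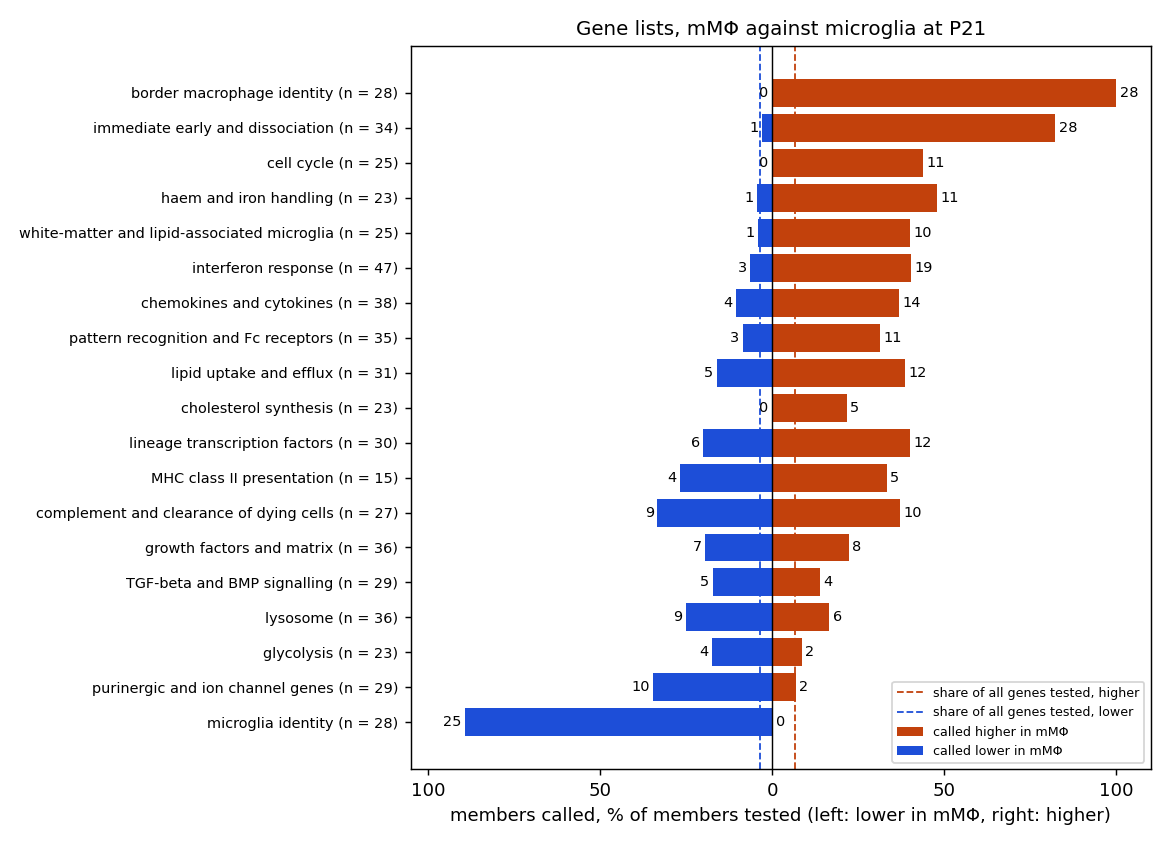
Share of the tested members of each of 19 gene lists called higher in mMΦ (orange, right) or lower (blue, left) against microglia at P21, as % of members tested, with the number of genes at each bar and dashed lines at the shares over all genes tested, 6.79% higher and 3.42% lower. Border macrophage identity (28 of 28) and immediate early genes (28 of 34) lead on the right, and microglia identity (25 of 28) on the left. The lists were chosen with earlier results of these data known.

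Immediate early and heat shock genes were higher in mMΦ in 28 of 34 cases, with a median log2 fold change of 2.56, and only Rhob was lower. These genes answer within minutes to stress and growth signals and are known to rise when tissue is digested and sorted. Fos was at 6063, 9460 and 5255 CPM in mMΦ, against 327, 406, 489, 1844 and 1093 CPM in microglia (3.38 ± 0.53, adjusted p = 1.21e-05). It averaged 6926 ± 2231 CPM in mMΦ (SD, n = 3) and 831 ± 642 CPM in microglia (SD, n = 5). Dusp1, the phosphatase that ends MAP kinase signals, was at 5791, 7454 and 5158 CPM in mMΦ, against 149, 154, 314, 1031 and 689 CPM in microglia (4.10 ± 0.55, adjusted p = 8.70e-07). Hspa1a, an inducible heat shock protein whose reads cannot be told from its copy Hspa1b, was at 187, 474 and 580 CPM in mMΦ, against 5.87, 7.27, 6.43, 18.8 and 16.4 CPM in microglia (5.88 ± 0.75, adjusted p = 2.88e-07). The S276 microglia stood above those of S232 for Fos and Dusp1 but below every mMΦ library.

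Egr1 showed the batch most plainly and was not called (1.55 ± 0.64, adjusted p = 0.129), at 1831, 3557 and 3027 CPM in mMΦ and 255, 283 and 530 CPM in S232 microglia but 4291 and 3215 CPM in S276 microglia. The summed level of the list was 40491, 57735 and 53055 CPM in mMΦ, against 4495, 4594 and 7340 CPM in S232 microglia and 22996 and 18278 CPM in S276 microglia. The mMΦ mean was thus 9.21 times that of S232 microglia and 2.44 times that of S276 microglia. Within S232 alone 29 members were called higher. Whether the difference arose in the tissue or during isolation was not tested.

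**Figure D4:**
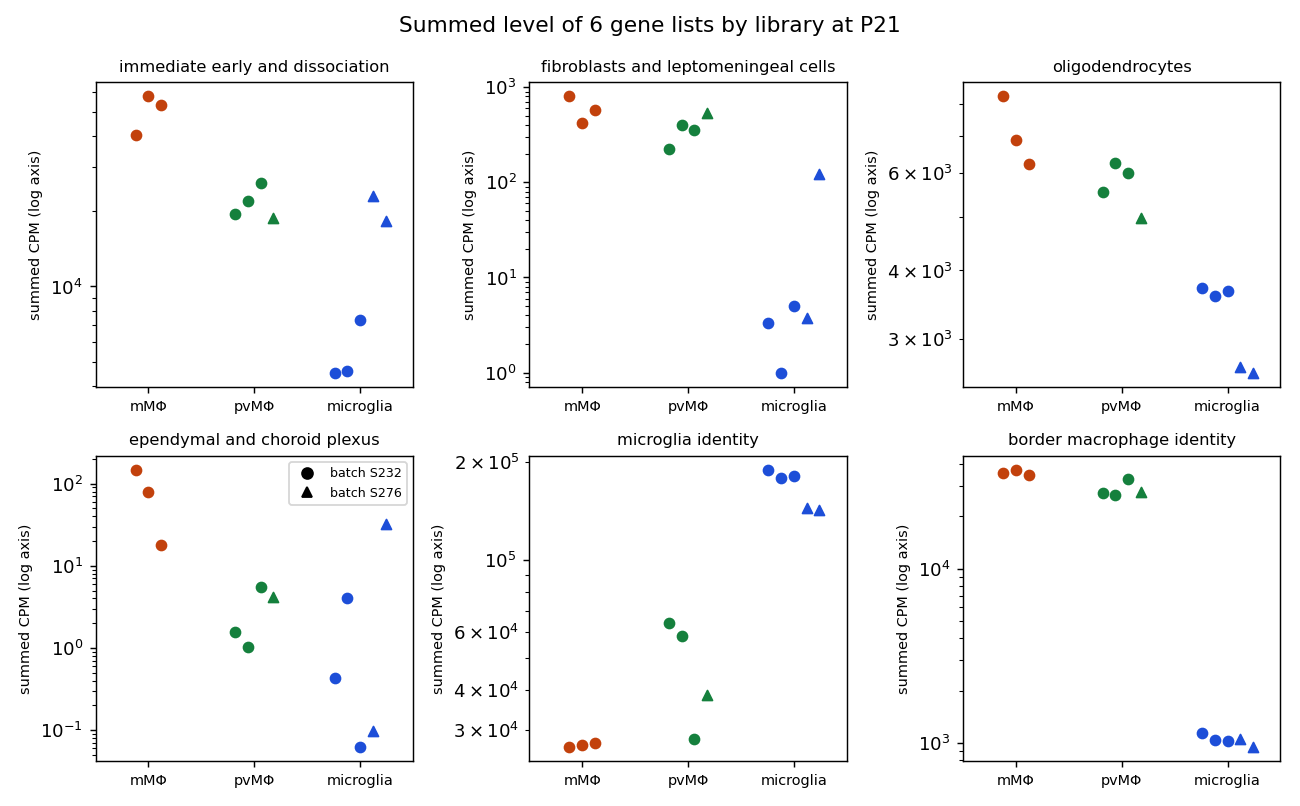
Summed CPM of 6 gene lists in each P21 library on a log axis for mMΦ (orange), pvMΦ (green) and microglia (blue), with circles for batch S232 and triangles for batch S276. The immediate early list stands at 40491 to 57735 CPM in mMΦ, against 4495 to 7340 CPM in S232 and 18278 to 22996 CPM in S276 microglia, while the microglia list is at 26666 to 27473 CPM in mMΦ, below all pvMΦ and microglia libraries.

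Cell cycle genes were called higher in mMΦ in 11 of 25 cases and lower in none, at low and uneven levels. Cdk1, the mitotic kinase, was at 66.4, 49.8 and 61.8 CPM in mMΦ, against 20.2, 14.4, 22.7, 9.12 and 4.24 CPM in microglia (1.80 ± 0.42, adjusted p = 0.00345). Cenpf, a centromere protein of late cycle, was at 32.0, 70.3 and 39.4 CPM in mMΦ, against 0.108, 2.95, 0.375, 0.396 and 0.0652 CPM in microglia (5.64 ± 0.68, adjusted p = 9.85e-08). Bub1, a spindle checkpoint kinase, was called on 1 library, with 0, 28.9 and 0.251 CPM in mMΦ and at most 0.130 CPM in microglia (9.71 ± 1.95, adjusted p = 0.000541). Mki67, the usual proliferation marker, was not called (2.43 ± 1.24, adjusted p = 0.234), at 1.91, 0.118 and 7.17 CPM in mMΦ and 0.0539, 0.109, 1.5, 0 and 0.0652 CPM in microglia. The count of 11 fell to 7 without mMΦ library 2 and to 3 in a fit of the compared groups alone.

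Transcripts of some other cells were higher in the mMΦ libraries, and those of others were lower. Of 19 fibroblast and leptomeningeal markers tested, 8 were higher in mMΦ, and their summed level was 804, 423 and 569 CPM in mMΦ, against 3.29, 0.984, 5.00, 3.72 and 122 CPM in microglia. Ptgds, the prostaglandin D synthase of the leptomeninges, was its most abundant member with 572, 204 and 464 CPM in mMΦ, against at most 0.485 CPM in microglia (10.32 ± 1.10, adjusted p = 6.69e-09), while the collagen genes Col1a1, Col1a2 and Col3a1 were not called. The defining markers Slc22a6 and Igf2 had no count in microglia and were low in mMΦ, at 7.43, 0 and 0.293 CPM for Slc22a6. Of 16 oligodendrocyte markers tested 7 were higher (4 within S232), with sums of 8278, 6898 and 6250 CPM in mMΦ and 2605 to 3714 CPM in microglia, of which the iron carrier gene Trf, also made by macrophages, was the bulk. Mbp, myelin basic protein, was at 864, 262 and 193 CPM in mMΦ, against 17.6, 43.7, 3.25, 22.5 and 35.6 CPM in microglia (4.32 ± 0.71, adjusted p = 2.76e-05), and Mog was not called.

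Pericyte markers were higher in 3 of 7 cases tested, or 1 within S232 and without any 1 of microglia libraries 1 to 4 (sums of 30.2, 15.6 and 23.8 CPM in mMΦ and 0.808 to 5.93 CPM in microglia). Choroid plexus and ependymal markers were higher in 1 of 8, beside 6.79% of all genes tested. Their sums were 146, 78.6 and 18.1 CPM in mMΦ and 0.0624 to 32.6 CPM in microglia. None of 12 neuronal, 9 oligodendrocyte precursor, 4 B cell and 5 mast cell markers tested was called. Several sums were lower in mMΦ. Astrocyte markers summed to 75.0 to 148 CPM in mMΦ and 185 to 284 CPM in microglia, with 2 of 12 higher and 1 lower. Their median log2 fold change was 4.05, so the sum and the median went opposite ways. Neutrophil markers summed to 36.7 to 56.7 CPM in mMΦ and 219 to 327 CPM in microglia, with 1 of 7 lower. Mean sums in mMΦ and microglia were 447 and 641 CPM for B cells and 253 and 2744 CPM for dendritic cells. Of 11 dendritic cell markers, 1 was higher and 1 lower. The lower one is also on the microglia identity list and made up the bulk of the dendritic cell sum in both populations. For endothelial cells the mean sums were 649 and 883 CPM, with overlap. There 2 of 14 markers were higher and 2 lower, with a median log2 fold change of 2.59. Of 4 T and NK cell markers tested, 1 was higher and 1 lower, and the lower one is also on the microglia identity list. The higher one, Cd4, was at 131, 225 and 137 CPM in mMΦ, against at most 0.323 CPM in microglia (10.39 ± 0.69, adjusted p = 5.67e-14). Cd3e, Cd3d, Cd3g and Trac had too few counts to be tested. The monocyte list summed to 694, 987 and 1659 CPM in mMΦ, against 17.9 to 162 CPM in microglia, and Nr4a1, also an immediate early gene, was its only member called. The monocyte markers Ly6c2 and Chil3 had too few counts, and Ccr2 was not called, at 14.45, 28.3 and 13.3 CPM in mMΦ and 4.09, 7.22, 5.18, 6.99 and 8.34 CPM in microglia (1.51 ± 0.88, adjusted p = 0.32). Fibroblast, pericyte and oligodendrocyte transcripts moved with the comparison, so their part in genes that those cells also make, such as Igf1, C4b, Ccn1 and Bmp2, was not tested.

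The same difference was measured at P10 and P56, and the change of the difference was tested in the same fit. Between P10 and P21 it changed at 31 genes, or 0.182% of those tested, with 25 (0.147%) moving up in mMΦ relative to microglia and 6 (0.0352%) down. Gpx3, plasma glutathione peroxidase, was the clearest of them. It was at 353, 335 and 296 CPM in mMΦ and 139, 139 and 162 CPM in microglia at P10, and at 694, 749 and 917 CPM in mMΦ and 1.40, 0.273, 0.5, 0.347 and 4.24 CPM in microglia at P21, a change of the difference of 8.40 ± 0.76 (adjusted p = 8.17e-09). The mMΦ libraries were higher at P21 than at P10, and every microglia library was far lower.

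In Mrc1 the microglia level was lower at P21 too. It was at 3424, 3424 and 3543 CPM in mMΦ and 349, 370 and 324 CPM in microglia at P10, and its difference grew by 3.58 by P21 (adjusted p = 9.82e-05). Folr2 and Fcna were the other border or top genes called here. Cell cycle genes made up most of the largest changes. Pbk, a mitotic kinase, was at 13.3, 10.7 and 15.9 CPM in mMΦ and 138, 132 and 171 CPM in microglia at P10, against 13, 16.3 and 8.93 CPM in mMΦ and at most 0.187 CPM in microglia at P21 (10.94 ± 2.11, adjusted p = 0.0106). Cenpf was at 89.6, 62.1 and 63.5 CPM in mMΦ and 75.8, 108 and 63.9 CPM in microglia at P10 (5.85 ± 0.97, adjusted p = 0.00219), and Bub1, Bub1b, Kif20a, Rrm2 and Pclaf were also named among the 10 largest. All microglia libraries held these genes at P10 and at most 2.95 CPM of any of them at P21, while mMΦ libraries scattered from 0 to 28.9 CPM for Bub1 at P21. Of the cell cycle list, 5 of 25 members were called in this test.

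Moving the other way, Hpgd, which degrades prostaglandins, was at 994, 1094 and 1027 CPM in mMΦ and 442, 429 and 402 CPM in microglia at P10, but at 856, 843 and 722 CPM in mMΦ and 911, 885, 809, 975 and 1034 CPM in microglia at P21 (-1.48 ± 0.27, adjusted p = 0.00679). Pmp22 and Mctp1 likewise were higher in mMΦ at P10 in every library and overlapped with microglia at P21, with changes of -1.47 and -3.94. The count of 31 fell to between 10 and 13 when any 1 of the mMΦ libraries of P10 was left out, to 20 without mMΦ library 2 of P21, and to 17 or 20 without microglia library 2 or 1 of P10. Of the genes named, Gpx3, Hpgd and Pmp22 kept their calls in all 23 alternatives.

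From P21 to P56 the difference changed at 6 genes, or 0.0352% of those tested, 3 in each direction (0.0176% each). Cd74 was at 12406, 8733 and 7173 CPM in mMΦ and 50.9, 12.6, 7.76, 40.6 and 55.5 CPM in microglia at P56, so that the P21 difference was the smaller by 5.45 on the log2 scale (-5.45 ± 0.75, adjusted p = 0.000137). H2-DMa followed, at 352, 361 and 207 CPM in mMΦ and 459, 553, 547, 333 and 330 CPM in microglia at P56, where the groups overlapped (-2.18 ± 0.37, adjusted p = 0.00556). H2-Aa at P56 was at 3915, 2481 and 2400 CPM in mMΦ and 0.514, 1.21, 19.6, 2.85 and 3.31 CPM in microglia, yet its change was not among the 6 called. The chemokine receptor gene Ccr1 was at 519, 686 and 646 CPM in mMΦ and 0.286, 4.48, 12.3, 20.7 and 14.51 CPM in microglia at P56 (-3.73 ± 0.70, adjusted p = 0.0175). This call was lost in 8 of 25 alternatives, among them leaving out mMΦ library 1 or 2 of P21 or mMΦ library 2 of P56, the fit without the batch term and limma. The Cd74 call was lost with limma and in a fit of the compared groups alone.

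In the other direction, Adgrg1, an adhesion receptor of microglia, was at 0.125, 0 and 0.222 CPM in mMΦ and 475, 519, 480, 1297 and 1598 CPM in microglia at P56, against 15.1, 15.7 and 17.5 CPM in mMΦ at P21 (6.62 ± 1.07, adjusted p = 0.00245). Angptl7 was at 0, 0 and 0.0444 CPM in mMΦ and 52.8, 23.8, 26.6, 30.7 and 25.2 CPM in microglia at P56, but overlapped at P21 with 9.49, 35.4 and 10.7 CPM in mMΦ and 48.2, 19.2, 14.7, 7.38 and 10.6 CPM in microglia (10.57 ± 1.40, adjusted p = 0.000128). The sixth gene was Ap4b1. Both age tests share the P21 libraries, so their results are not independent. The count of 6 became 13 without mMΦ library 3 of P21 or of P56.

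**Figure D5:**
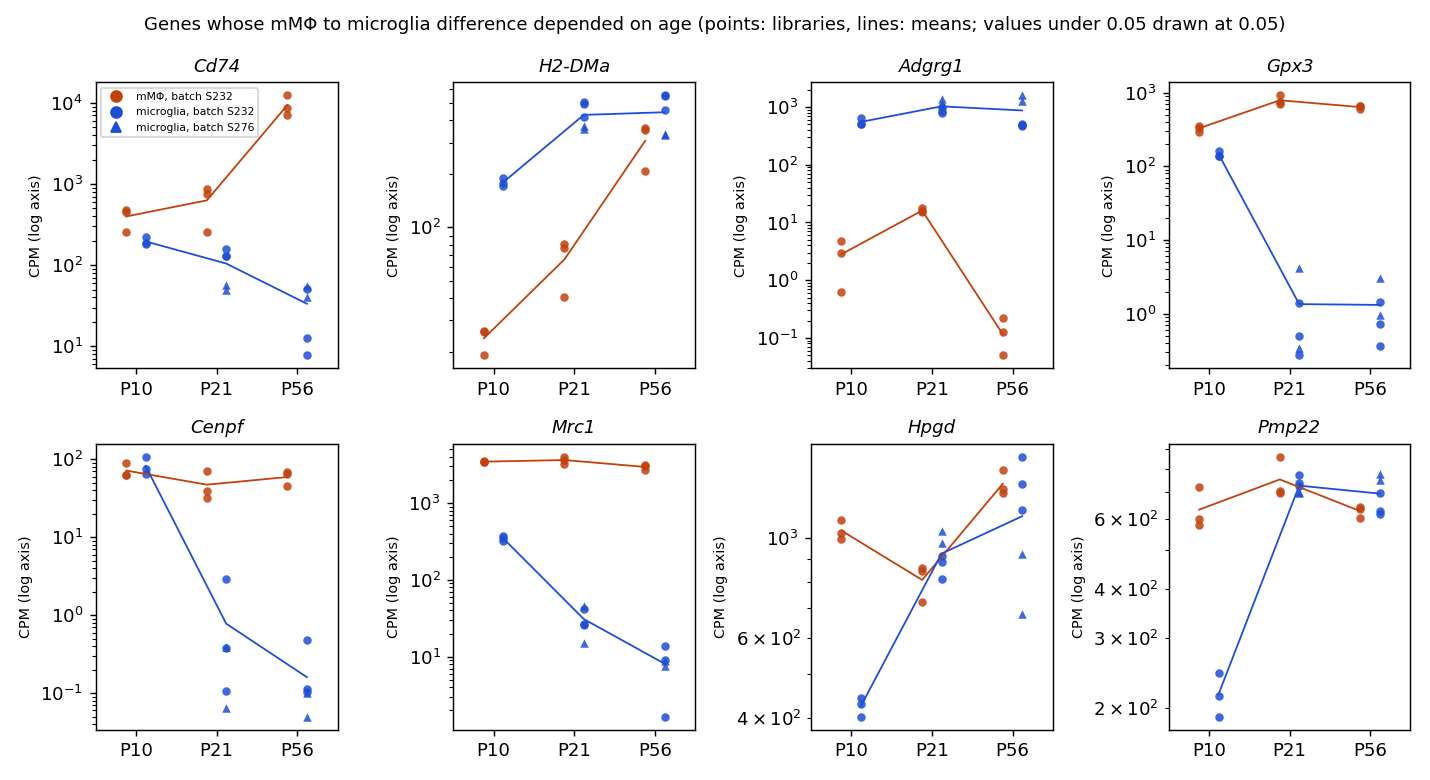
CPM in each library at P10, P21 and P56 on a log axis for 8 genes called in the age comparisons, mMΦ in orange left of microglia in blue, with lines joining group means, circles for batch S232 and triangles for batch S276. Cd74 in mMΦ stands at 256 to 876 CPM at P21 and 7173 to 12406 CPM at P56, while Gpx3, Cenpf and Mrc1 in microglia drop between P10 and P21.

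Set against pvMΦ, the other border macrophages, mMΦ differed at few genes: 53 were called, or 0.311% of those tested, 15 higher (0.0879%) and 38 lower (0.223%) in mMΦ. No border identity gene was among them. Lyve1, for example, was at 1631, 2082 and 2563 CPM in mMΦ and averaged 910 CPM in pvMΦ (adjusted p = 0.663). Of 28 microglia identity genes 13 were lower in mMΦ than in pvMΦ. Tmem119 was at 122, 104 and 124 CPM in mMΦ, against 889, 832, 251 and 767 CPM in pvMΦ (-2.43 ± 0.32, adjusted p = 5.38e-05), and Sparc was at 273, 372 and 372 CPM in mMΦ, against 2968, 3289, 623 and 1221 CPM in pvMΦ (-2.67 ± 0.43, adjusted p = 0.0006). The summed microglia list was at 26666, 26973 and 27473 CPM in mMΦ, against 64295, 58587, 28162 and 38552 CPM in pvMΦ, and pvMΦ library 3 was the lowest pvMΦ library for this sum, for Tmem119 and for Sparc. The pvMΦ mean was 12.9% of the microglia mean for Sall1, 12.1% for Tmem119 and 16.1% for P2ry12, above the mMΦ shares given before. Microglial transcripts therefore moved with this comparison as a list, and their source was not tested.

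Among the genes higher in mMΦ than in pvMΦ, Ier5 was at 742, 1365 and 972 CPM in mMΦ, against 264, 339, 338 and 283 CPM in pvMΦ (1.80 ± 0.32, adjusted p = 0.00186). Hspa5, the chaperone of the endoplasmic reticulum, was at 4152, 6096 and 5713 CPM in mMΦ, against 2362, 2748, 3472 and 1537 CPM in pvMΦ (1.05 ± 0.18, adjusted p = 0.00132). Etf1, Adam15, Srsf5, Sqstm1, Cd14 and Zfand5 were also called, and the libraries did not overlap in Cd14 either, at 3745, 5265 and 6774 CPM in mMΦ and 2770, 3361, 2857 and 1046 CPM in pvMΦ (1.06 ± 0.24, adjusted p = 0.027). Of 17 alternatives, Etf1 and Cd14 lost the call in 10, Sqstm1 in 9 and Zfand5 in 11. The summed immediate early list was at 40491 to 57735 CPM in mMΦ and 18729 to 25938 CPM in pvMΦ. Its part in these genes was not tested. In fits of the 2 populations alone, or of the P21 libraries alone, edgeR called no gene in this comparison, although 534 and 1080 genes had an unadjusted p under 0.05. Over all libraries DESeq2's Wald test called 773, and limma 32 with the balance turned, 25 higher and 7 lower in mMΦ. Without pvMΦ library 3 the count was 145, without pvMΦ library 1 it was 33, and without mMΦ library 2 it was 35.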

How the data were processed

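RNA of sorted brain macrophages was sequenced per mouse, with cDNA made by the SMARTer Ultra Low Input v4 kit and libraries by Nextera XT, per the labels' protocols. The submitters' processing notes name bcl2fastq 2.18, STAR 2.7.8a and featureCounts 2.0.2. They give no genome build, annotation or strand setting, so a gene and its antisense partner cannot be told apart. The authors deposited raw counts per gene symbol for 53546 symbols.

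From these, edgeR 4.0.16 in R 4.3.3 fitted all 45 libraries in 13 groups with a batch term for S276, after TMM scaling and the filterByExpr filter (minimum count 10, minimum total 15), which left 17064 genes. Robust quasi-likelihood tests were adjusted by the Benjamini-Hochberg method and called under 0.05. SE is the log2 fold change over the root of its F. CPM used TMM-scaled totals. A bound against a group at 0 took 3 counts over the group, and such bounds cover counting error only. The model was also run on simulated counts, whose outcome is not given here and lends no support to the calls. Each library is labelled as a separate mouse, and replicate numbers were not used to pair libraries.

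The members and the gene lists were chosen with earlier results of these data known. Genes were named as the 15 largest differences each way among called genes with a mean of at least 100 CPM in the higher group and no overlap, 10 each way in the other comparisons (at least 20 CPM), and from the lists. Alternatives were DESeq2 1.42.0, limma 3.58.1, other scaling and filters, no batch term, batch S232 alone, fewer groups, a replicate block and leaving out each library. Promoters came from RefSeq GRCm38.p6. A few genes are not reported here by name, though counts of called genes include them.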

Additional observations from a re-analysis of the deposited data

Results flagged for a closer look

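Among the 5 microglia libraries of P21, 64 sets of values were checked for 1 library far from the others, and the 8 given here were flagged. The limit used flags about 1 in 20 sets of normally distributed values. Several sets lay near 0 CPM and some lists share genes, so 8 of 64 cannot be set against that rate. Microglia library 5 was high in the summed fibroblast and leptomeningeal markers at 122 CPM, in the choroid plexus and ependymal markers at 32.6 CPM and in Thbd at 1.499 CPM. Microglia library 1 was high in the oligodendrocyte precursor markers at 6.09 CPM and in the mMΦ-enriched genes Cd209f at 0.539 CPM, Fcna at 1.18 CPM and Timd4 at 0.323 CPM. Microglia library 3 was low in Cd34 at 311 CPM. In mMΦ the fibroblast sum was 423 to 804 CPM, above library 5, the choroid plexus sum was 18.1 to 146 CPM, a range that holds it, and the precursor sum was 2.64 to 5.89 CPM, below microglia library 1.

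The difference between mMΦ and microglia itself differed between P21 and P10, by edgeR's quasi-likelihood test of the interaction, at the genes given here. On the log2 scale, P21 minus P10, it was 12.35 for Bub1, 11.50 for Bub1b, 10.94 for Pbk, 10.33 for Kif20a, 9.60 for Stard4, 9.58 for Rrm2, 8.40 for Gpx3, 6.42 for Pclaf and 5.85 for Cenpf. It was -3.94 for Mctp1, -2.15 for Mylip, -1.48 for Hpgd, -1.47 for Pmp22, -1.44 for Ywhah and -1.33 for Tnfaip8l2. Of 23 alternatives, the call was lost in 17 for Bub1b, 16 for Bub1, 13 for Pclaf, 12 for Rrm2 and Mylip and 10 for Mctp1. It was lost in 6 for Stard4, 4 for Pbk and Kif20a, and in none for Gpx3, Hpgd and Pmp22. Bub1 at P21 rested on 1 mMΦ library, with 0, 28.9 and 0.251 CPM. Between P21 and P56, P21 minus P56, the difference changed by 10.57 for Angptl7, 6.62 for Adgrg1, -5.45 for Cd74, -3.73 for Ccr1 and -2.18 for H2-DMa.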

How the results depend on the processing

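Of the counts of called genes recomputed under the alternatives, 54 stayed within 1.5 times and 29 did not. At P21 the 1743 calls became 2791 with DESeq2's Wald test, 953 in a fit of the P21 libraries alone and 465 with a replicate block in a fit of the compared groups, and leaving out 1 library gave 1278 to 1532. For the change from P10 the 31 calls became 19 with no filter, 492 with DESeq2, 144 with limma, 62 without the 3 libraries that stood apart and 83 in the compared groups alone, with 10 to 32 when 1 library was left out. For the change to P56 the 6 calls became 648 with DESeq2, 41 in batch S232, 12 without the 3 libraries and 2 with the replicate block, with 5 to 13 when 1 was left out. For mMΦ against pvMΦ the 53 calls became 33 with no filter, 773 with DESeq2, 32 with limma and 0 in the compared groups alone, with the block (398 genes at an unadjusted p under 0.05) or in the P21 libraries alone, with 33 to 145 when 1 was left out. Where edgeR gave 0 in the compared groups or P21 libraries, 534 and 1080 genes had an unadjusted p under 0.05. Same-numbered mMΦ and microglia libraries did not deviate together (correlations of 0.00995, -0.00238 and -0.00165). Same-numbered mMΦ and pvMΦ libraries gave 0.0398, -0.0002 and 0.124. With 3 mMΦ libraries, and microglia means that span both batches, these values cannot decide whether the numbers mark a pairing. Under the alternatives, the named genes kept direction and side of the threshold in 3238 values and lost the call in 410, gained it in 7, and 1 reversed, Csf1r at 0.17 with limma. In the replicate block 26 of 28 border genes stayed called higher, 20 of 28 microglia genes lower, 10 of 47 interferon genes higher, 0 of 25 cell cycle genes and 0 of 23 cholesterol genes higher. In a fit of the compared groups alone, 7 lineage factors and 7 lipid genes were higher, against 12 of each over all libraries. limma lost the calls of Mrc1, Lyve1, P2ry12, Fos, Cd74 and Ccl2, which kept their direction. The cause of these shifts was not tested. Low genes rest on few counts, and 3 mMΦ libraries limit what small differences could be called.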
